A study of Mus musculus with 10 samples.

Results

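10 genes of IgG Fc receptor signalling were followed in arthritic mouse synovium, and 9 of 10 could be measured among 18128 genes of the array table. They were chosen by name. Of these, 4 encode activating receptors or their signalling chain (Fcgr1, Fcgr3, Fcgr4 and Fcer1g), 1 encodes the inhibitory receptor (Fcgr2b), and 4 measured ones act downstream (Syk, Plcg2, Vav1 and Inpp5d). The downstream kinase Lyn has no probe set naming it alone in the annotation used here, so it has no value. The 9 genes have 19 probe sets, and the probe set with the highest mean over the 10 arrays stood for each gene.

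The arrays came from male DBA/1J mice, labelled as 8 weeks old and obtained at an age of 5 weeks. Arthritis was set off by 1 mg of an antibody against type II collagen given on day 8. It was boosted on day 11 by 25 µg of lipopolysaccharide. All 10 mice received both agents, and on day 12 they were killed and the synovium of the left hind leg dissected. Vehicle mice (n = 5) received corn oil by mouth, and the maslinic acid group (5 mice) received this olive-derived triterpene in corn oil daily at 200 mg per kg of body weight. Every comparison is therefore between arthritic animals. Untreated mice were not analysed here, and how the 5 mice of each group were selected is not stated. The arthritis starts from a transferred antibody, so it shows the effector phase of disease and not the making of the antibody.

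Fc gamma receptors bind the constant part of IgG and let macrophages, neutrophils, mast cells and other leukocytes respond to immune complexes. The activating receptors signal through a tyrosine motif (ITAM) of the Fc receptor gamma chain, which Src-family kinases such as Lyn phosphorylate and to which the kinase Syk then binds. The inhibitory receptor carries an ITIM motif instead, which recruits the inositol phosphatase SHIP1 and dampens the signal. In antibody-driven arthritis the collagen antibody forms such complexes on cartilage, which is why these receptors are studied in this model.

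Of the 4 Fc gamma receptor genes, 3 lie near each other in the RefSeq annotation of chromosome 1, in the order Fcgr2b, Fcgr4 and Fcgr3, with Fcer1g farther along the same chromosome, while Fcgr1 lies on chromosome 3. Their promoter windows are shown because the activating and the inhibitory receptor genes are the contrast of interest. Each window runs from 250 bases before to 50 after the transcript start (RefSeq, GRCm38.p6), 5′ to 3′ on the gene's strand. Capitals mark GAGGAA or its reverse complement TTCCTC, a core recognised by the myeloid factor PU.1 and by other ETS factors. For Fcgr3, which has a pair of overlapping windows in the table, 1 is shown.
Fcgr1, chr3:96293920-96294219, minus strand: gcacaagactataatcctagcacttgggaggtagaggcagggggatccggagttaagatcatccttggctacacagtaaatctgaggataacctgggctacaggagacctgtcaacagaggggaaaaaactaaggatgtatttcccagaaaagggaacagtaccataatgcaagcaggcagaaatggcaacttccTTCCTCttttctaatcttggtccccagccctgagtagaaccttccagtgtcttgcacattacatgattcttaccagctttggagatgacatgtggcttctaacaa
Fcgr3, chr1:171059345-171059644, minus strand: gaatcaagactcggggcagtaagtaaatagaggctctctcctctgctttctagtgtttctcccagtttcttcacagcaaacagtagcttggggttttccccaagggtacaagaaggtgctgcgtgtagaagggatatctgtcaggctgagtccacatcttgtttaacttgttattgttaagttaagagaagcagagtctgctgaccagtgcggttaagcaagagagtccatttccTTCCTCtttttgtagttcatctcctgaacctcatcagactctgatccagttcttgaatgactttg
Fcgr4, chr1:171018676-171018975, plus strand: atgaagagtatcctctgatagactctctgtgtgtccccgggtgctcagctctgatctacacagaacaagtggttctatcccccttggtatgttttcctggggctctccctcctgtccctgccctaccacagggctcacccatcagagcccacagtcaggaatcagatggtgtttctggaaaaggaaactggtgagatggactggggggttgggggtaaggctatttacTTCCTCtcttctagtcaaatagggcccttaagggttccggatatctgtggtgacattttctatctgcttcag
Fcgr2b, chr1:170976022-170976321, minus strand: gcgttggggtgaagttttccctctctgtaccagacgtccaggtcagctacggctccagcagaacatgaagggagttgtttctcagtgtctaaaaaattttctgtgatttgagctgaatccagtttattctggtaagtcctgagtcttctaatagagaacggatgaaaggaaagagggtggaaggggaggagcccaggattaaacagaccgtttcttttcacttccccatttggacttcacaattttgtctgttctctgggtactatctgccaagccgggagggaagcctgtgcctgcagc

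The motif stood 55 bases before the start in Fcgr1, 15 in the Fcgr3 window shown and 22 in Fcgr4, in each case as TTCCTC, and it was not found in the Fcgr2b or Fcer1g window. Of the 9 measured genes, 6 held it on either strand in at least 1 of their windows, against 31.3% of all genes in the promoter table. The windows of Fcgr1 and Fcgr3 also share the run TTCCTTCCTCTTTT, which overlaps the motif and occurs in 5 of 32851 windows (0.0152%). These 5 include the Fcgr1 window and both overlapping Fcgr3 windows. That run was found by comparing the sequences, so its rarity is a description. A match is not evidence of binding.

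The deposited values look like log2 intensities in level, with a median of 6.74, but hardly differ between arrays: 93.5% of probe sets had a range under 0.001. Distances between groups are thus not fold changes and their scale is unknown. They are given below in millionths of a deposited unit from the gene's mean over the 10 arrays, and as Hedges' g, which divides the difference of maslinic acid minus vehicle by the SD within groups (n = 5 each). Levels of different probe sets are not compared. In vehicle, the arrays of replicates 3 and 5 were unlike the rest, with array weights in limma of 0.244 and 0.198 against 0.696 to 3.85 for the other 8, and results that turn on them are also given without them. The synovial lining gene Prg4 had a deposited level of 11.5 and the fibroblast gene Dcn one of 13.0, and the muscle gene Acta1 (13.3) and the neutrophil precursor gene Mpo (11.7) gave signal too.

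None of the Fc receptor or signalling genes passed the test between the groups. Of the 9 genes, 0 had a limma adjusted p under 0.05, where 0.0% of 39993 probe sets did, and 5 were higher and 4 lower with maslinic acid. At an unadjusted p under 0.05 there was 1 gene, Fcgr3, against a background of 9.04% of probe sets (5.28% lower and 3.77% higher). In none of the 9 were the groups apart, against 1.36% of all probe sets. The median g of the 9 genes was 0.08, where that of all genes was 0.0 and that of all probe sets was -0.08. Of all genes, 48.1% were higher.

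**Figure D1:**
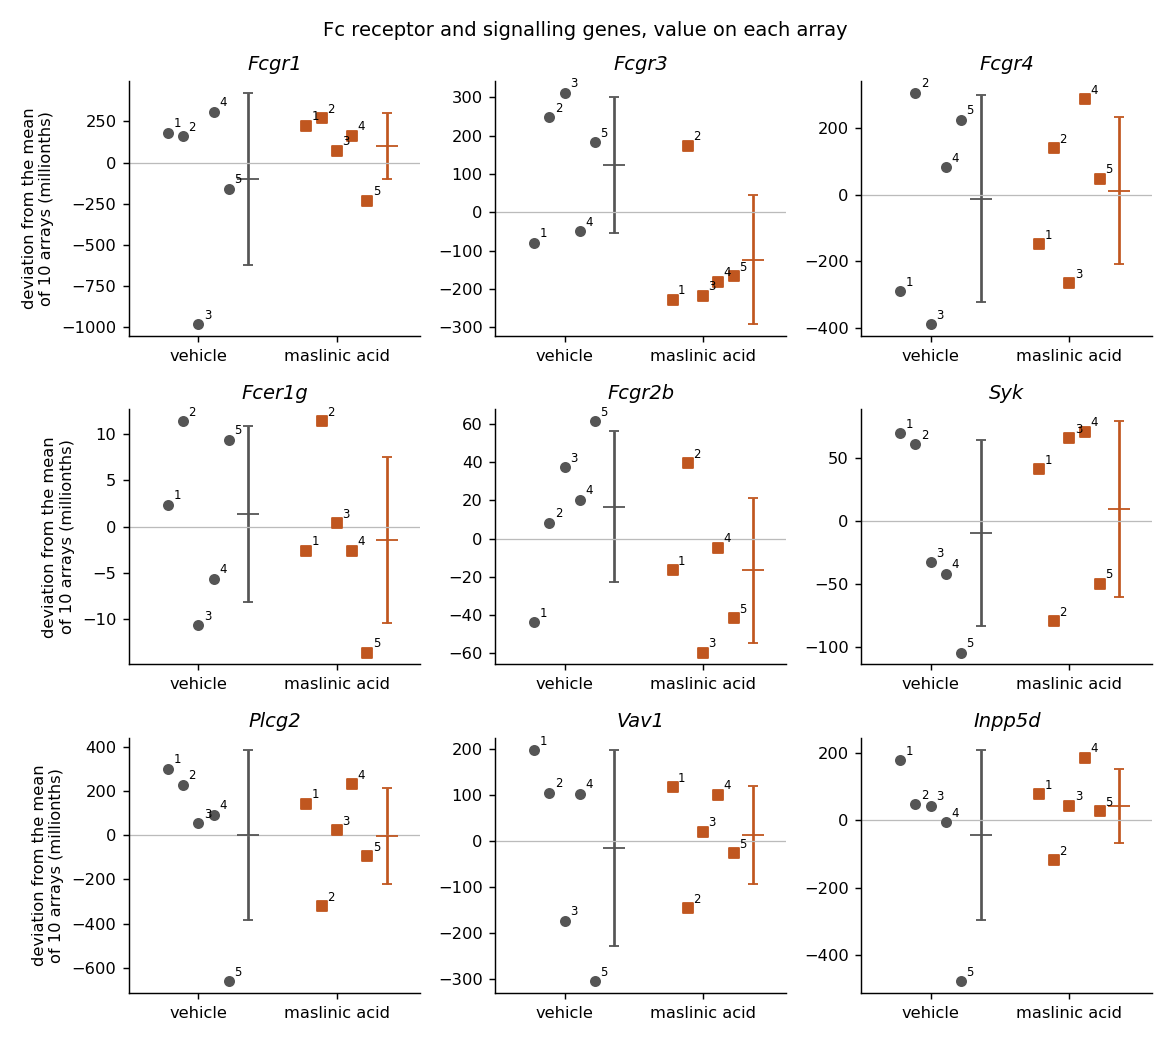
Value of each of the 9 genes on each array, as the deviation from the gene's mean over 10 arrays in millionths of a deposited unit (circles, vehicle; squares, maslinic acid; numbers, replicates; bars, mean and SD of 5 arrays). For Fcgr3, 4 maslinic acid arrays lie at -227 to -166, below every vehicle array, while replicate 2 lies at 175; vehicle replicate 5 is the lowest array for Syk, Plcg2, Vav1 and Inpp5d.

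Fcgr3, the low-affinity activating receptor for IgG complexes, had the g farthest from 0 of the 9 genes. The vehicle arrays of replicates 1 to 5 stood at -78.4, 249, 313, -49.4 and 184 millionths, and the maslinic acid arrays at -227, 175, -217, -180.4 and -166. Of the maslinic acid arrays, 4 lay below all vehicle arrays, and the remaining 1, replicate 2, lay among the high vehicle arrays. The mean difference was -247 millionths (SD 177 in vehicle and 168 with maslinic acid, n = 5 each), with g = -1.29 (95% CI -2.54 to 0.02). The test did not pass (limma adjusted p = 0.551, unadjusted 0.0466; exact permutation p = 0.0556, two-sided). By the exact Wilcoxon test its unadjusted p was 0.0317, where 6.85% of all probe sets were under 0.05 and none after adjustment. Without maslinic acid replicate 2 the g was -2.11 (limma adjusted p = 0.522), and without vehicle replicates 3 and 5 it was -0.82.

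Fcgr2b, the inhibitory receptor, leaned the same way and not the opposite one. Its vehicle arrays stood at -43.7, 8.3, 37.3, 20.3 and 61.3 millionths and its maslinic acid arrays at -16.7, 39.3, -59.7, -4.7 and -41.7. The groups overlapped over most of their range: vehicle replicate 1 was as low as the low maslinic acid arrays, and maslinic acid replicate 2 as high as the high vehicle ones. The g was -0.78 (95% CI -1.94 to 0.42; limma adjusted p = 0.678; exact permutation p = 0.222), and it was -1.33 without vehicle replicate 1 and -0.28 without vehicle replicates 3 and 5. All 5 probe sets that name Fcgr2b had a lower mean with maslinic acid, with g from -1.37 to -0.78, and 1 of them, with 9 distinct values, reached an unadjusted p of 0.0370 (limma adjusted p = 0.531). Another of the 5 took only 2 distinct values on the arrays. Its r with the probe set that stands for the gene was 0.38, and the r of the remaining ones was 0.94, 0.87 and 0.88. All 5 read the same 10 arrays, so they are not independent. The probe set that stands for the gene has the suffix by which the array maker marks probes shared between transcripts, and the coding sequences of Fcgr2b and Fcgr3 are alike in their outer domains, so signal from the neighbour was not measured separately.

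The other activating receptors showed no such lean. Fcgr1, the high-affinity receptor that can bind single IgG molecules, stood at 181, 160.0, -984, 308 and -160.0 millionths in vehicle and at 223, 269, 72.0, 163 and -232 with maslinic acid. Vehicle replicate 3 lay far below all other arrays and carried the difference in means: g was 0.45 (95% CI -0.70 to 1.58; limma adjusted p = 0.810) with it and -0.10 without it. Fcgr4, which binds some IgG subclasses on macrophages and neutrophils, stood at -289, 307, -389, 82.9 and 226 in vehicle and at -148, 140, -265, 288 and 47.9 with maslinic acid. Its groups covered nearly the same range, with g = 0.08 (-1.04 to 1.20; limma adjusted p = 0.977).

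Fcer1g, the shared gamma chain through which all 3 activating receptors signal, varied least. Its values stood at 2.4, 11.4, -10.6, -5.6 and 9.4 millionths in vehicle and at -2.6, 11.4, 0.4, -2.6 and -13.6 with maslinic acid, a whole range of 25.0 millionths with 8 distinct values. The groups overlapped throughout, with g = -0.27 (95% CI -1.39 to 0.86; limma adjusted p = 0.898). The intervals of Fcgr1, Fcgr4 and Fcer1g all reach 0.86 or more in the higher direction and -0.70 or beyond in the lower. Shifts of that size are thus not excluded with 5 arrays per group.

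To set activating against inhibitory receptors, each gene was scaled to unit SD over the 10 arrays, and Fcgr2b was taken from the mean of the 4 activating genes. The vehicle arrays gave 0.89, 0.82, -1.87, -0.44 and -0.91, and the maslinic acid arrays 0.07, -0.13, 1.01, 0.21 and 0.34. The vehicle group held the lowest value of all arrays as well as 2 of the highest, and the maslinic acid arrays lay inside the vehicle range except for replicate 3. The group means were -0.30 ± 1.17 and 0.30 ± 0.44 (SD, n = 5 each). The difference of 0.60 was 0.21 without vehicle replicate 3 and -0.12 without vehicle replicates 3 and 5, and no test was made of this score because it is built from the chosen genes.

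With all arrays and the values as deposited, the downstream genes had no group difference beyond the spread of the arrays. Syk, the kinase that docks on phosphorylated ITAMs, stood at 70.1, 61.1, -32.9, -41.9 and -105 millionths in vehicle and at 41.1, -79.9, 66.1, 71.1 and -49.9 with maslinic acid. High and low arrays occurred in both groups (g = 0.24, 95% CI -0.89 to 1.36; limma adjusted p = 0.912). The 4 probe sets of Syk did not share a direction: the representative was higher, and the other 3 had g of -0.13, -0.47 and -1.18.

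Plcg2, the phospholipase that raises calcium after receptor engagement, stood at 302, 229, 54.2, 93.2 and -662 millionths in vehicle and at 143, -322, 24.2, 232 and -94.8 with maslinic acid (g = -0.02, 95% CI -1.14 to 1.1; limma adjusted p = 1.0). Vav1, the exchange factor that turns on Rac for phagocytosis, stood at 198, 106, -172, 104 and -304 in vehicle and at 118, -146, 21.5, 102 and -25.5 with maslinic acid (g = 0.15, -0.98 to 1.27; limma adjusted p = 0.943). Inpp5d, which encodes the phosphatase SHIP1 that Fcgr2b recruits, stood at 179, 47.7, 42.7, -6.3 and -477 in vehicle and at 77.7, -118, 42.7, 186 and 26.7 with maslinic acid (g = 0.40, -0.75 to 1.52; limma adjusted p = 0.834). In all 3 genes vehicle replicate 5 was the lowest array and maslinic acid replicate 2 the lowest of its own group. Without vehicle replicates 3 and 5 the g was -0.98 for Plcg2, -1.15 for Vav1, -0.26 for Syk and -0.25 for Inpp5d.

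Without those 2 vehicle arrays all 19 probe sets of the 9 genes had lower means with maslinic acid, where 54.1% of all probe sets were lower, and 0 of the 9 genes passed. With all arrays 11 of the 19 were lower and 8 higher, where 52.5% of all probe sets were lower. Of the 9 genes, 5 had the other direction without them: Fcgr1, Fcgr4, Syk, Vav1 and Inpp5d. Fcgr3 and Fcgr2b were lower with all arrays and without those 2. The SD was larger in vehicle for 9 of 9 genes, as for 81.7% of all genes with 10 distinct values.

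**Figure D2:**
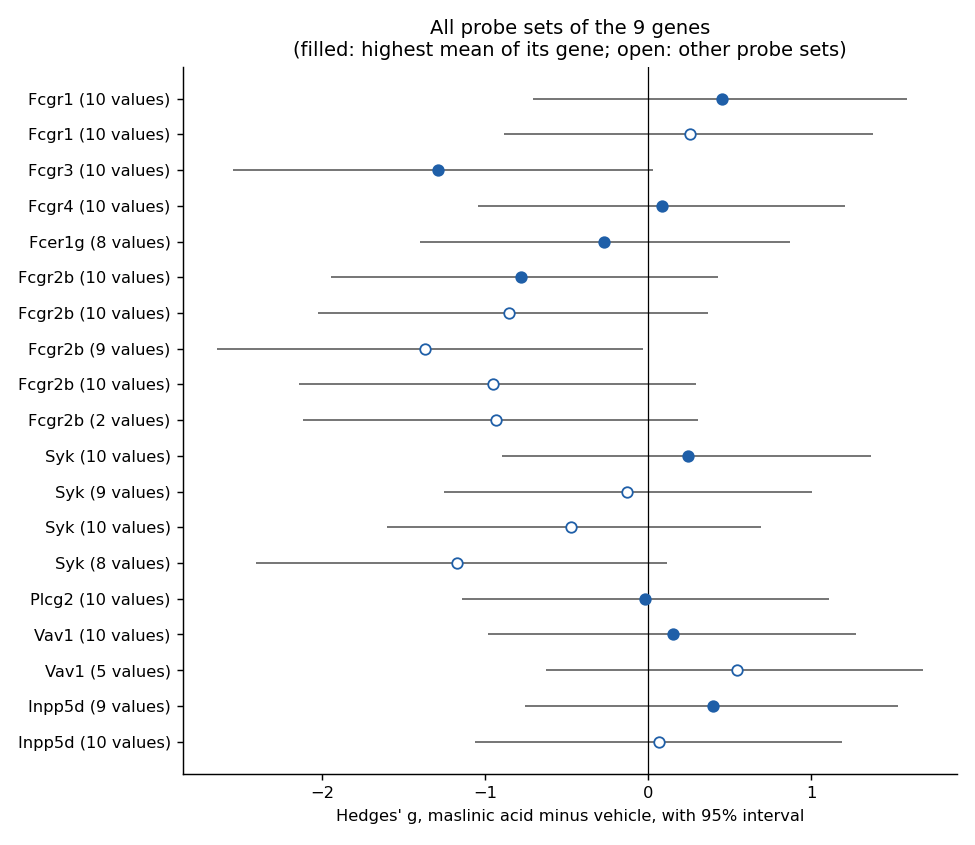
Hedges' g of maslinic acid minus vehicle (x axis, in units of the SD within groups) for all 19 probe sets of the 9 genes, with 95% confidence intervals; filled points stand for the gene, open points are its other probe sets, and the number of distinct values over 10 arrays is in brackets. All 5 Fcgr2b probe sets and the Fcgr3 probe set lie below 0, from -1.37 to -0.78, and 18 of 19 intervals include 0.

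In bulk tissue, fewer cells of a type and less RNA per cell cannot be told apart, so the marker lists of the cells that carry Fc receptors were read beside these values. Of 12 measured macrophage and monocyte markers 8 were higher and 4 lower (median g = 0.22), and their mean scaled level ran from -0.33 to 0.41 in vehicle and from -0.50 to 0.81 with maslinic acid. Of 11 neutrophil markers 1 was higher and 10 were lower (median -0.57), with levels from -0.36 to 1.15 and from -0.64 to -0.10. Those lower included S100a8 and S100a9, which took only 2 distinct values each and differed by -0.2 and -0.4 millionths. Mast cell markers were split, 4 higher and 3 lower (median 0.06; -0.56 to 0.75 and -0.97 to 0.38), and of 5 B cell markers 1 was higher and 4 lower (median -0.28; -0.84 to 1.48 and -1.54 to 0.66). Without vehicle replicates 3 and 5 the median was -0.18 for the macrophage and monocyte list, -1.08 for the neutrophil list and -0.10 for the mast cell list. After quantile normalization the neutrophil median was -0.094, over the 4 of 11 markers that still varied between arrays. None of these markers passed adjustment. The part of these cells in the Fcgr3 and Fcgr2b values was not tested.

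Across arrays the downstream genes varied together. The pairs among members beyond those with Fcer1g were added after seeing the data. Over the 6 pairs among Syk, Plcg2, Vav1 and Inpp5d, Pearson's r ran from 0.79 to 0.95 over 10 arrays, all 6 with an adjusted permutation p under 0.05 over 54 relations, and 4 of 6 by Spearman's rho. The closest pair was Plcg2 and Inpp5d (r = 0.95, permutation p = 0.000270, adjusted p = 0.00729; rho = 0.90, permutation p = 0.000790, adjusted p = 0.0213). The 2 arrays farthest from the median were chosen for each pair by the gene named first. Without them the 6 values ran from 0.60 to 0.81, and without vehicle replicates 3 and 5 from 0.73 to 0.97. For Plcg2 and Inpp5d the r was 0.98 after removing the group means. Each gene entered these pairs with 1 probe set. That of Syk had r of 0.78, 0.54 and 0.17 with the other probe sets of Syk, so the Syk pairs hold for that probe set. The r between probe sets of the same gene was 0.74 for Vav1 and 0.87 for Inpp5d. All probe sets of an array share its RNA and its normalization, and such an r was common: 9.33% of 6742 other genes reached 0.8 with Plcg2, 12.5% with Vav1, 9.58% (of 6743) with Inpp5d and 3.01% with Syk.

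Over all 10 arrays the receptors did not form such a block. Of their 10 pairs, r ran from -0.46 to 0.78 with 0 passing adjustment, and the highest was between the neighbours Fcgr3 and Fcgr2b (r = 0.78, permutation p = 0.0132, adjusted p = 0.102; rho = 0.72, permutation p = 0.0237, adjusted p = 0.248; r = 0.84 without the 2 farthest arrays and 0.68 without vehicle replicates 3 and 5). Without vehicle replicates 3 and 5 the 10 receptor pairs were all positive, with r from 0.07 to 0.77. Fcgr1 with Fcgr3, the lowest pair over all arrays, was then at 0.33 in place of -0.46. Between receptors and downstream genes, 16 of 20 pairs over all 10 arrays were negative and 0 passed. The lowest was Fcgr2b with Syk (r = -0.68, permutation p = 0.0348, adjusted p = 0.188; rho = -0.67, permutation p = 0.0393, adjusted p = 0.295), which was -0.48 without the 2 farthest arrays and -0.51 without vehicle replicates 3 and 5. Fcer1g had r of 0.48 with Fcgr1, 0.40 with Fcgr3 and 0.45 with Fcgr4, the receptors that need it (permutation p = 0.162, 0.248 and 0.186, adjusted p from 0.705 to 0.717 over 26 relations). The rho of these 3 pairs was 0.30, 0.25 and 0.47 (permutation p = 0.396, 0.481 and 0.170, adjusted p = 0.835), and without the 2 farthest arrays r was 0.40, 0.052 and 0.21. Those 2 arrays were chosen by Fcer1g. Chosen by the receptor instead, they left r of -0.37, 0.75 and 0.38, so this check turned on the gene used for the choice. Without vehicle replicates 3 and 5 the r of the 3 pairs was 0.57, 0.77 and 0.20.

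Marker scores of myeloid cells were set against each of the 9 genes, 18 relations in the family of 26, and 0 passed adjustment by either coefficient. Here the 2 farthest arrays were chosen by the score. The highest with the macrophage and monocyte score was Fcer1g (r = 0.65, permutation p = 0.0423, adjusted p = 0.705; rho = 0.61, permutation p = 0.0661, adjusted p = 0.743), and it was 0.25 without the 2 farthest arrays and 0.83 without vehicle replicates 3 and 5. Fcgr3, which both macrophages and neutrophils carry, had r = 0.23 with the macrophage score and 0.53 with the neutrophil score (permutation p = 0.522 and 0.114, adjusted p = 0.849 and 0.705; rho = 0.04 and 0.54, adjusted p = 0.979 and 0.743). After removing group means these were 0.42 and 0.19, and without the 2 farthest arrays -0.39 and -0.24. They were 0.74 and 0.40 without vehicle replicates 3 and 5, so the order of the macrophage and the neutrophil value turned.

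**Figure D3:**
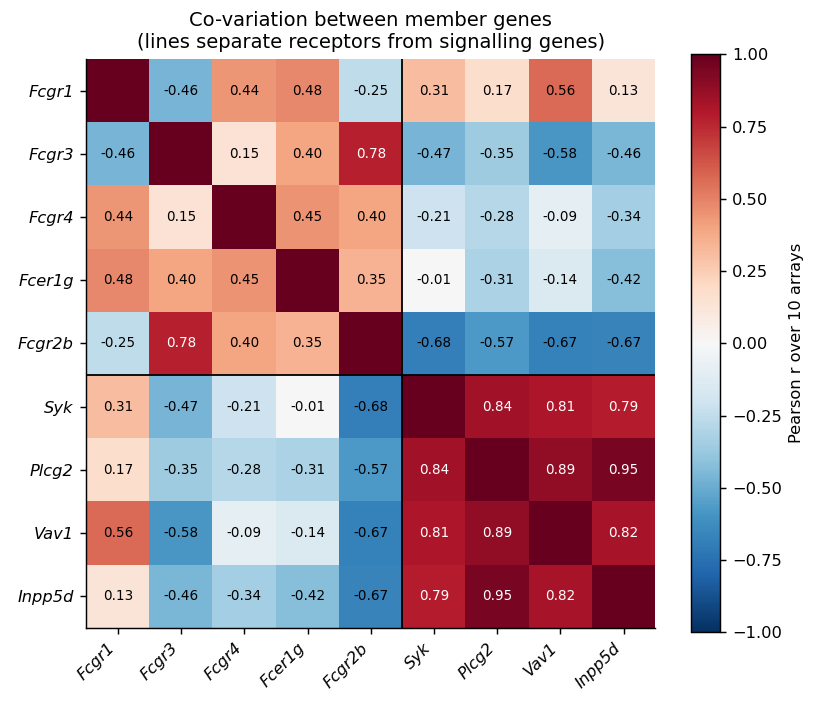
Pearson's r between the 9 genes over 10 arrays (colour and number), with lines between the 5 receptor genes and the 4 downstream genes. The downstream block holds values from 0.79 to 0.95, and most squares between the blocks are negative, down to -0.68 for Fcgr2b with Syk.

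The genes whose pattern over the 10 arrays was most like that of each member were taken from 6743 genes with 10 distinct values, by the 3 highest Pearson's r. For Fcer1g they were Marco, a macrophage scavenger receptor (r = 0.94), Sra1 (0.92) and Coq10b (0.92). For Fcgr1 they were Acp2, a lysosomal phosphatase (0.98), Jagn1 (0.98) and Sars (0.95), for Fcgr3 Hltf (0.97), Commd8 (0.96) and Rpe (0.95), for Fcgr4 1500009L16Rik (0.94), Coa7 (0.93) and Gimap9 (0.91), and for Fcgr2b Thoc2l (0.94), Tmbim4 (0.93) and Lnpk (0.91). Among downstream genes, Syk was closest to Gga3 (0.95), H2-Ab1, an MHC class II chain (0.92), and Ampd2 (0.92). Plcg2 was closest to Rac2, the haematopoietic Rac GTPase (0.98), Cpt1a (0.98) and Nelfcd (0.98), Vav1 to Mcmbp (0.99), Tagln2 (0.99) and Pgam1 (0.98), and Inpp5d to Thbs1 (0.98), Parp4 (0.97) and Ints10 (0.97). Being the highest of 6743, these values carry no test. Few genes were that close to Fcgr4 and Fcer1g, where 0.326% and 0.445% of genes reached 0.8, against 3.89% for Fcgr1, 3.99% for Fcgr3 and 1.54% for Fcgr2b.

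Other genes of the pathway were read from 8 lists, of which 81 of 91 genes were measured. More were lower than higher with maslinic acid (54 against 26, median g = -0.43), where 48.5% of all genes were lower and their median was 0.0. At an unadjusted p under 0.05 there were 11 lower and 3 higher, 17.3% of the 81, against 4.54% lower and 4.29% higher (8.83% in all) among all 18128 genes. After quantile normalization the count was 7 of 81 (8.64%), where 5.02% of all probe sets were under 0.05. Of the 75 genes that still varied 64 were lower, where 62.0% of all probe sets were lower. None passed adjustment, and genes of 1 pathway are not independent. The 2 genes of lowest p in each direction are named for each list. Without vehicle replicates 3 and 5 the medians of the 8 lists ran from -1.03 to -0.53, and after quantile normalization from -0.89 to -0.24, where that of all probe sets was -0.09 and -0.23.

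The most one-sided list was that of other ITAM adaptors and paired receptors, with 9 of 10 lower (median g = -1.17). They included Clec5a, a DAP12-coupled lectin receptor (g = -1.88, 95% CI -3.28 to -0.40; limma adjusted p = 0.476), Sirpb1a (-1.72), and, named after its value was seen, the adaptor Tyrobp itself, which encodes DAP12 (-1.27). The exception was Oscar, the osteoclast receptor that also uses the Fc receptor gamma chain (1.20). Without vehicle replicates 3 and 5 the list's median was -0.76, and after quantile normalization -0.48, over 9 of 10 genes. Neutrophils express several of these genes, and 10 of 11 neutrophil markers were lower too. Among the latter, named after their values were seen, were the chemokine receptor Cxcr2 (g = -2.71, no overlap of the groups; limma adjusted p = 0.418) and the growth factor receptor Csf3r (-1.89; limma adjusted p = 0.476). After quantile normalization Cxcr2 was at -0.52 and Csf3r at -1.53, but Mmp8 was at 0.33 and Mmp9 at 1.08. No other neutrophil marker still varied then, and their median was -0.094. Mmp9 was also the 1 marker that was higher before it (g = 1.01). The part of neutrophils in the values of the ITAM list was not tested. ITIM receptors of myeloid cells were lower in 5 of 8 (median -0.55). Cd300a, an inhibitory receptor of mast cells and neutrophils, was lower with no overlap of the groups (g = -2.23, -3.75 to -0.65; limma adjusted p = 0.455), where 1.38% of genes had groups that did not overlap. Cd33 was at -1.34, Pecam1 at 0.95 and Siglece at 0.41, and after quantile normalization Pecam1 was at -0.48 and Siglece at -0.32.

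Other Fc receptors and Fc receptor-like genes, which include receptors for IgE, IgM and IgA as well as Fcgrt and Trim21, which bind IgG, were counted together, with 8 lower, 2 higher and 1 without difference of 11 (median g = -0.70). Ms4a2, the beta chain of the IgE receptor, which mast cells use with the same gamma chain, was lower with no overlap (g = -2.22, 95% CI -3.74 to -0.64; limma adjusted p = 0.455), and Fcer1a, its ligand-binding chain, was at -1.25. Mast cell markers were split, 4 higher and 3 lower, as given above. Those farthest from 0, named after their values were seen, were Cpa3 (-0.68) and Hdc (-0.64). After quantile normalization the median of the mast cell markers was -0.19. The part of mast cells in the Ms4a2 and Fcer1a values was not tested. Fcgrt, the neonatal receptor that recycles IgG, was at 0.80 and Fcmr, the IgM receptor, at 0.23. After quantile normalization Fcgrt was at -0.57, and without vehicle replicates 3 and 5 Fcmr was at -0.43.

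With all arrays and the values as deposited, kinases and adaptors next to the receptor went both ways. Of 8 Src-family kinases and regulators 4 were lower and 4 higher (median g = 0.01), with Fgr, a myeloid Src-family kinase, at -1.48 and Ptprc, the CD45 phosphatase that activates these kinases, at -1.40, against Yes1 at 0.54 and Src at 0.40. Of 15 Tec kinases, adaptors and PI3-kinase genes 8 were lower and 7 higher (median -0.10). Lat2, the adaptor NTAL that FcR and B cell receptor signals phosphorylate, had g = -2.15 (95% CI -3.64 to -0.59; limma adjusted p = 0.464) and Pik3r1, the regulatory subunit of PI3-kinase, 1.85 (0.39 to 3.25; limma adjusted p = 0.483). The kinase Tec was at -1.23 and the adaptor Gab2 at 0.85. After quantile normalization Lat2 was at -0.073, Pik3r1 at -0.21, Gab2 at -0.66, Yes1 at -0.25 and Src at -0.23. The median was then -0.52 for the Src-family list and -0.64 for the Tec list. Without vehicle replicates 3 and 5 these medians were -0.74 and -0.81.

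Further downstream, 6 of 9 genes of the phospholipase and protein kinase C branch were lower (median g = -0.45). Plcg1, the broadly expressed relative of Plcg2, was higher with no overlap of the groups (g = 1.6, 95% CI 0.21 to 2.93; limma adjusted p = 0.491), although it was at -0.45 after quantile normalization and -0.08 with each array centred on its median. Nfatc1 was at 1.26, Bcl10 at -1.22 and Prkcd at -1.19. Of 9 phosphatases, DOK adaptors and CBL ligases 7 were lower (median -0.27), with Dok3 at -1.46 and Dok2 at -0.79, and Cblb, a ubiquitin ligase that limits such signals, at 1.79 (0.35 to 3.17; limma adjusted p = 0.488) and Inppl1, the SHIP1 relative, at 0.69. Of 11 actin and GTPase effectors 7 were lower (median -0.24), with Cdc42 at -1.41 and Coro1a at -0.53 against Gsn at 1.04 and Vav2 at 0.95. After quantile normalization Cblb was at -0.74, Vav2 at -0.64 and Bcl10 at 0.36, and with centred arrays Inppl1 was at -0.22.

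**Figure D4:**
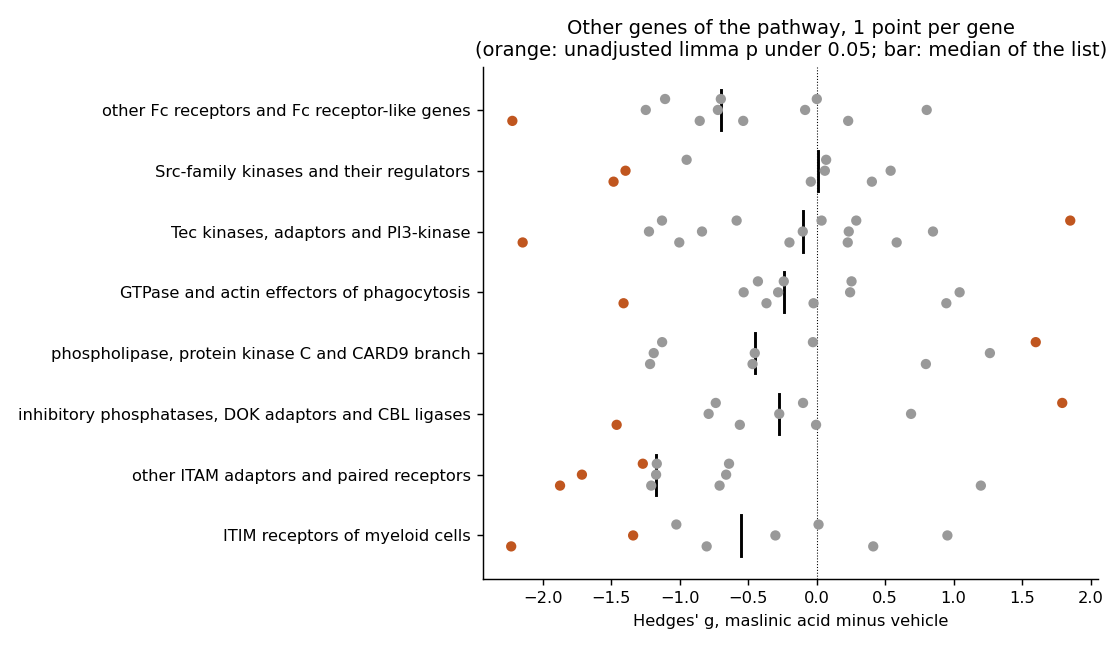
Hedges' g of maslinic acid minus vehicle for the 81 measured genes of 8 pathway lists, 1 point per gene, with orange for an unadjusted limma p under 0.05 and a bar at each list's median. The list of other ITAM adaptors and paired receptors lies lowest, with a median of -1.17, and the Src-family list has its median at 0.01.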

How the data were processed

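Total RNA of synovium (100 ng per mouse, 1 array each) was hybridised as biotin-labelled cRNA to Affymetrix mouse arrays. The authors deposited 1 score per probe set and array; per the submitters' processing notes they used R 3.2.1, and for background correction and normalization the method is not given in the sources used here. These scores have 6 decimals, and their scale is unsettled. Groups and replicates come from the sample titles, and nothing in the labels gives a batch.

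Of 39993 probe sets, 34202 named 1 gene, 931 several and 4860 none here. limma 3.58.1 (R 4.3.3; lmFit and eBayes, two-sided, Benjamini-Hochberg over all probe sets, threshold 0.05, no filter) compared maslinic acid with vehicle; the prior degrees of freedom were 0.503. Exact tests used all 252 assignments of arrays, with 0.00794 the smallest p possible, and correlations 100000 permutations (Python 3.11.15, scipy 1.17.1). Intervals of g come from the noncentral t distribution. Named genes were the members, the 2 of lowest p in each direction per pathway list and the 3 most similar genes per member. Tyrobp, Cxcr2, Csf3r, Mmp8, Mmp9, Cpa3, Hdc and the tissue check genes were added after seeing the data. So were the pairs of members beyond those with Fcer1g. Members and lists were chosen with earlier results of these data known. The limma fit was tested on simulated data with known shifts. The alternatives are in the closing section. Other per-sample columns: 0.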

Additional observations from a re-analysis of the deposited data

Results flagged for a closer look

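In a check for single arrays far from the rest of their group of 5 (Dixon's ratio of the gap to the group's range, above 0.71), 24 groups were looked at: 18 of the 9 genes and 6 of 3 scores (activating minus inhibitory receptors, macrophage and neutrophil markers). Of these, 3 stood out, all of genes, where chance alone marks about 5% of groups. For Fcgr3, maslinic acid replicate 2 was the highest of its group, with a ratio of 0.848: it stood at 175 millionths and the other 4 at -227 to -166. For Plcg2 and Inpp5d, vehicle replicate 5 was the lowest of its group, with ratios of 0.743 and 0.718, at -662 and -477 millionths. Vehicle replicate 3, which lay at -984 millionths for Fcgr1, had a ratio under that limit.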

How the results depend on the processing

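Of 187 values of the 9 genes under alternatives, 0 passed adjustment (lowest limma adjusted p = 0.393) and 35 had the other direction; Fcgr3 (-2.11 to -0.82) and Fcgr2b (-1.33 to -0.28) had none. Quantile normalization gave g of -0.58 for Fcgr1, -0.34 for Fcgr4, 0.90 for Fcer1g, -1.02 for Syk, -1.60 for Vav1 and -0.26 for Inpp5d; it called 8 probe sets, none of a member, in place of 0, and 14 list genes at an unadjusted p under 0.05 in place of 27 (members, pathway and marker lists together). Array weights gave -0.43 for Fcgr1, -0.29 for Syk, -0.66 for Vav1 and -0.0070 for Inpp5d, 1 called probe set and 17 of 19 member probe sets lower. Centring on array medians gave -0.032 for Fcgr4, -0.16 for Syk and -0.042 for Vav1 and 17 of 19 lower; by its construction it moves all probe sets of an array together, and 88.4% of all became lower. Without vehicle replicates 3 and 5 together the g was -0.60 for Fcgr1, -0.073 for Fcgr4, -0.26 for Syk, -1.15 for Vav1 and -0.25 for Inpp5d, with all 19 lower. The mean over its probe sets gave -0.38 for Syk. Other causes were not tested. Leaving out single arrays gave 0 to 1 called probe sets (1 without maslinic acid replicate 1) and 9 to 15 of 19 lower. It gave g from -0.10 to 0.69 for Fcgr1, -0.26 to 0.37 for Fcgr4, -0.65 to 0.027 for Fcer1g, -0.060 to 0.55 for Syk, -0.85 to 0.21 for Plcg2, -0.30 to 0.46 for Vav1 and -0.21 to 0.68 for Inpp5d, and 0.21 to 0.90 for the receptor score.

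Probe sets at an unadjusted p under 0.05 numbered 3617, against 3028 with a replicate block, 2009 after quantile normalization, 737 after centring, 1552 of 18128 with 1 probe set per gene, 1864 above the median level, 1350 with 10 distinct values and 2741 by the exact Wilcoxon test. The replicate block changed no call of a member (Fcgr3 g = -1.47, limma adjusted p = 0.647). Same-numbered arrays correlated at -0.33 to 0.34 after removing group means, so the numbers were not taken to pair the mice. The number of arrays and the rounding to 6 decimals limit the precision, most for Fcer1g.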

Other observations

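Some marker lists of other cell types also leaned 1 way. Osteoclast markers were higher in 6 of 6 (median g = 1.02) and platelet and megakaryocyte markers lower in 5 of 5 (median -1.48), and without vehicle replicates 3 and 5 the medians were 0.54 and -1.38. After quantile normalization they were 0.80 and -0.67, over 5 and 4 markers that still varied. Skeletal muscle markers were higher in 6 of 6 (median 0.54, and 0.72 without vehicle replicates 3 and 5), with 0.28 after quantile normalization over the 2 that still varied. T cell markers were lower in 4 of 5 (median -0.88). Synovial lining and fibroblast markers were higher in 9 of 9 (median 0.34), but the median was -0.087 without vehicle replicates 3 and 5. None of these markers passed adjustment in limma.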
